A study of Mus musculus with 6 samples.

Results

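The cornified envelope genes of the epidermal differentiation complex were followed across keratinocytes lacking the transcription factors Ovol1 and Ovol2. They were taken by name from the array platform's annotation. Every gene whose symbol begins with Lce or Sprr was included, together with Lor, Ivl, Flg, Flg2, Hrnr, Rptn, Tchh, Tchhl1, Kprp, Crnn, Crct1 and Lelp1, while the S100 genes of the same locus were left out. This gave 43 genes of the 19938 measured, each read by 1 probe set. By subfamily they comprised 13 Lce1 genes, 5 Lce3 genes, Lce6a, 2 Sprr1 genes, 9 Sprr2 genes, Sprr3 and Sprr4, 6 S100-fused genes (Crnn, Flg2, Hrnr, Rptn, Tchh and Tchhl1), and Lor, Ivl, Kprp, Crct1 and Lelp1. Of the 50 symbols of these families in RefSeq (GRCm38.p6), Flg, Lce1m, Lce3d, Sprr2a1, Sprr2a2, Sprr2a3 and Sprr2c-ps were not analysed here.

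Keratinocytes were isolated from the skin of C57BL/6 mouse embryos at E18.5, cultured and exposed to calcium, which induces them to differentiate. Total RNA was hybridised to 6 Affymetrix arrays, 2 for each of 3 groups, with 2 mice per array. Control mice were Ovol2flox/+; Ovol1+/- or Ovol2flox/+;K14-Cre, and the labels do not say which array held which of these. Ovol1 knockout (KO) mice were Ovol1-/-. Double knockout (DKO) mice were Ovol2flox/-;K14-Cre; Ovol1-/-. They thus lacked Ovol1 in every cell, carried 1 deleted and 1 floxed Ovol2 allele, and expressed Cre from the K14 promoter, which is active in basal keratinocytes. The labels also do not give the days in culture or in calcium of any single array. Arrays are called here by group and replicate number, for example control 1 and DKO 2. P-values measure the spread between these pools of mice, with 2 pools per group.

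The cornified envelope is the cross-linked protein shell that replaces the plasma membrane of a keratinocyte as it turns into a dead, flattened cell of the skin surface. Involucrin is laid down early, loricrin makes up most of the mature shell, and small proline-rich (Sprr) and late cornified envelope (Lce) proteins are joined to them by transglutaminases. The S100-fused proteins, filaggrin among them, bind keratin filaments or fill the shell. Most of these genes are switched on late in differentiation, after cells have left the basal layer. Ovol1 and Ovol2 encode zinc finger repressors that act on the balance between proliferation and differentiation in the epidermis.

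The sequence upstream of the start site differed between the subfamilies that are compared by expression in the next paragraphs. Promoters of 38 of the 43 genes were present in the RefSeq promoter table (GRCm38.p6). Shown are 200 bases ending at the start site of Lor, the gene that rose in the DKO, of Sprr1a, which was nearly level, of Sprr2k, which had the lowest DKO to control ratio, and of 3 Lce1 genes whose replicate order turned in the DKO. Lce1e and Lce1h were chosen after their values were seen. All are on chromosome 3, at chr3:92083143-92083342 (minus strand) for Lor, chr3:92485882-92486081 (minus) for Sprr1a, chr3:92432382-92432581 (plus) for Sprr2k, chr3:92752339-92752538 (minus) for Lce1g, chr3:92709075-92709274 (minus) for Lce1e and chr3:92765066-92765265 (minus) for Lce1h. Capitals mark TGAGTCA or its reverse complement and TATAAA in the Lor and Sprr genes, and AATAAAA in the Lce1 genes.
Lor: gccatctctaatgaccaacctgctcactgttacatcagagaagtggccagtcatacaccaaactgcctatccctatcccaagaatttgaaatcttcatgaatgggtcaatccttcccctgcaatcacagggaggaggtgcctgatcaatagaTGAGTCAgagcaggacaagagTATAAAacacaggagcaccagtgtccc
Sprr1a: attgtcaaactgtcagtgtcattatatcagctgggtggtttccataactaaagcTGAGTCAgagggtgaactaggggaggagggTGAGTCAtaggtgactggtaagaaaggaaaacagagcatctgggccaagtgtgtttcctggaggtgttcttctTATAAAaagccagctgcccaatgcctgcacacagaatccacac
Sprr2k: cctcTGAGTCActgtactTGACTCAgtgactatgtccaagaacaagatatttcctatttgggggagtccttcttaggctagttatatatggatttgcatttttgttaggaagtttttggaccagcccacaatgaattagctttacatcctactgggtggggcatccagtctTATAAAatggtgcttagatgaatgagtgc
Lce1g: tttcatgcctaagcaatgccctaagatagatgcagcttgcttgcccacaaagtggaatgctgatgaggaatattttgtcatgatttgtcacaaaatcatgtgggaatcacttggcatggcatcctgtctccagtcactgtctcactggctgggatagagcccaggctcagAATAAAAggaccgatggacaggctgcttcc
Lce1e: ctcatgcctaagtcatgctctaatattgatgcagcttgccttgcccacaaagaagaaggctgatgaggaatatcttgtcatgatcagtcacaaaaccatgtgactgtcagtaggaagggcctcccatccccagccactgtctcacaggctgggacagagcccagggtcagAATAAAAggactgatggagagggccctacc
Lce1h: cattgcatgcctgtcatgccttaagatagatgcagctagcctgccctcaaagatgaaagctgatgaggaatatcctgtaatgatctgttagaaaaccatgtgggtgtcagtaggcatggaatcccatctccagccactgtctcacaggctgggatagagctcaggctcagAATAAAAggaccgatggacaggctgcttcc

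Motifs were searched on both strands of the 250 bases before the start. TGAGTCA, the sequence bound by AP-1 factors, occurred in 10 of the 38 envelope gene promoters, against 4.46% of all 32851 promoters in the table. All 7 Sprr2 promoters, Sprr1a, Lor and Ivl held it, and none of the 12 Lce1 promoters did. TATAAA occurred in 18 of the 38 and in 12.4% of all promoters, with 7 of 7 for Sprr2 and 1 of 12 for Lce1. AATAAAA, a sequence picked after the promoters were read and overlapping TATAAA by some letters, was present in 9 of 12 Lce1 promoters and in 7.76% of all. CCGTTA, described as a core of the Ovol binding site, was in 0 of 38 and in 2.18% of all promoters. Aligned over 250 bases, Lce1 promoters shared a median of 65.2% of bases with one another and 52.0% with Sprr2 promoters. Sprr2 promoters shared 65.8% with one another.

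Across all measured genes, the arrays correlated at r = 0.935 to 0.9937, and median deposited intensities ran from 174.2 to 203.6. The keratinocyte label held, with Krt5 at 13.68 to 13.94 and Krt14 at 13.61 to 13.67 on the log2 scale. Levels and differences are given throughout on the log2(intensity + 16) scale after quantile normalization and end at 14.7. Ovol1 was not lower in the knockouts, at 10.27 and 9.85 in controls, 10.53 and 10.22 in the KO, and 10.58 and 10.59 in the DKO. Ovol2, with both alleles targeted only in the DKO, was at 8.12 and 8.82 in controls, 9.0 and 8.99 in the KO, and 8.71 and 8.32 in the DKO. Controls of the Ovol2flox/+;K14-Cre genotype also carried a floxed allele together with Cre, and the other controls were Ovol1+/-. The DKO arrays overlapped control and lay below both KO arrays (log2 difference -0.48, limma, adjusted p = 0.52). No source used here says whether these probe sets lie in the deleted exons, so they do not check the labels. All arrays are labelled female, but Xist was at 4.59 to 4.71 on control 1, control 2 and KO 1 and at 11.97 to 12.26 on KO 2, DKO 1 and DKO 2, and the Y-linked Kdm5d ran the opposite way. Every DKO to control contrast is therefore also a contrast between these sets of arrays, and the genotype and the sex of the mice cannot be told apart there. The contrasts with the KO are partly mixed in the same way, since KO 1 and KO 2 fell in different sets. With Xist as a covariate, 8 genes in all were called between DKO and control, against 639 without it. Replicate 1 minus replicate 2 for Xist was 0.06 in control, -7.38 in the KO and -0.14 in the DKO. The covariate was thus set almost only by KO 1 against KO 2, and this fit cannot tell sex from genotype either.

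In the DKO, the envelope genes did not move as a block. Lor, the major envelope protein, was the only one of the 43 called higher than in control (limma, Benjamini-Hochberg adjusted over all genes, adjusted p under 0.05), and 0 were called lower. Over all genes, 0.943% were called higher and 2.26% lower, 3.2% in either direction. The median log2 difference of the envelope genes was -0.41 beside 0.02 for all genes, but it was 0.21 without control 1 and 0.21 without DKO 1. With Xist as a covariate, a fit set almost only by KO 1 against KO 2, it was 0.38. In the DKO, 31 of the 43 had lower means than in control, beside 45.7% of all genes, and 12 had higher means, beside 54.3%. Both DKO arrays lay below both control arrays for 13 of the 43, or 30.2%, beside 21.5% of all genes, and above both for Lor and Sprr2f, 4.65% beside 23.1%. At an unadjusted p under 0.05 there were 11 envelope genes, 25.6% beside 14.5% of all genes. In bulk RNA of this kind, fewer cells of a type and less RNA per cell cannot be told apart.

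**Figure D1:**
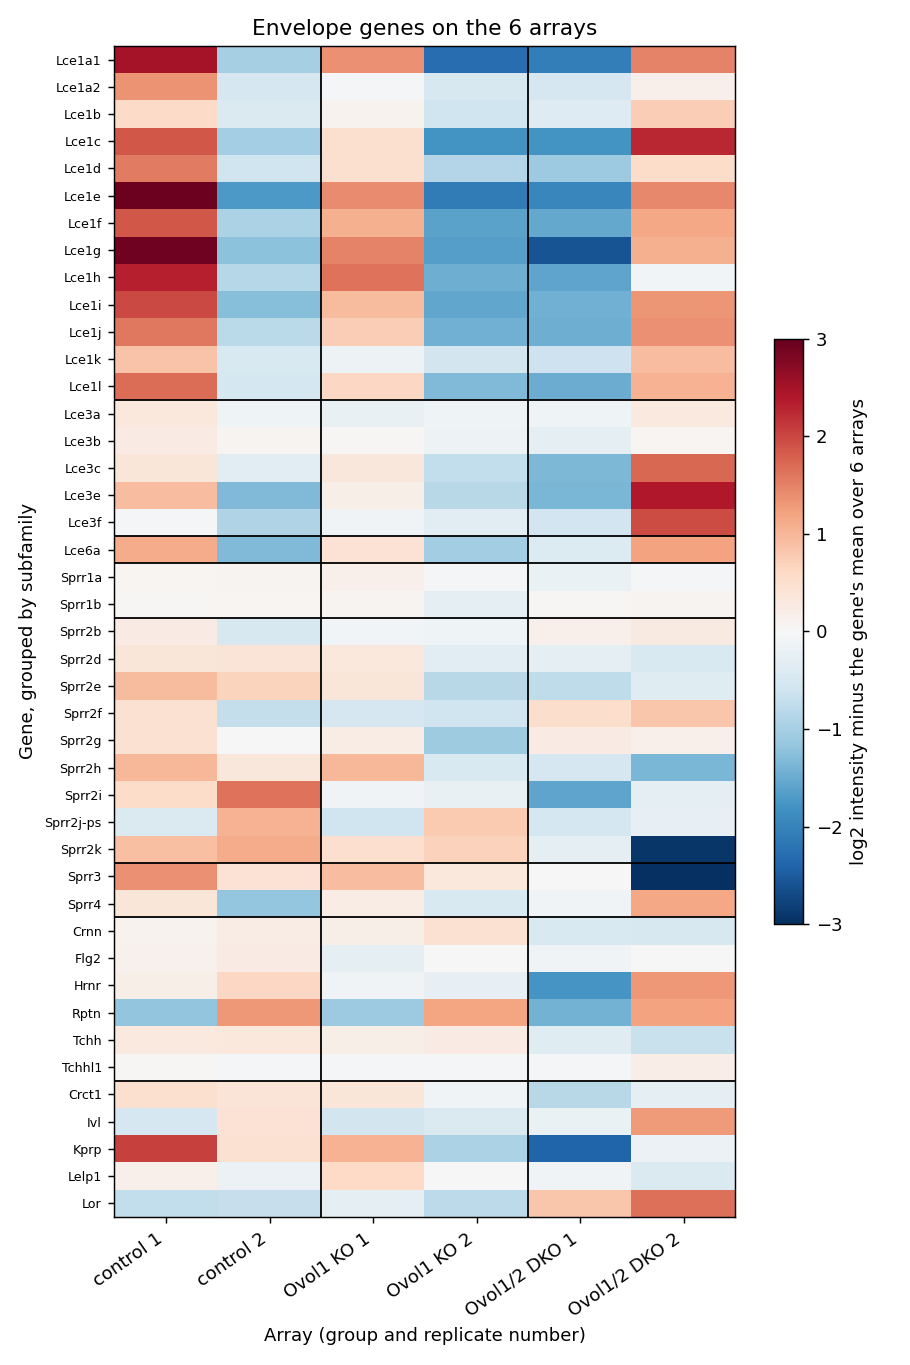
Each of the 43 envelope genes (rows, grouped by subfamily) on each of the 6 arrays (columns), coloured by its log2 intensity minus the gene's own mean over the arrays. The Lce1 block is mostly red on control 1, KO 1 and DKO 2 and blue on control 2, KO 2 and DKO 1, while Lor is red on the DKO arrays.

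Loricrin, the glycine-rich protein that makes up most of the mature envelope, was at 9.92 and 9.96 on the control arrays, 10.35 and 9.87 on the KO arrays, and 11.49 and 12.29 on the DKO arrays. Both DKO arrays were higher than all 4 others. The group means were 9.94 ± 0.0291 in control, 10.11 ± 0.345 in the KO and 11.89 ± 0.565 in the DKO (SD, n = 2 each). Lor was 3.87-fold higher in the DKO than in control, a log2 difference of 1.95 with an SE of 0.29 (limma, adjusted p = 0.019). Against the KO, the log2 difference was 1.78 (SE 0.29, adjusted p = 0.033). Without DKO 2 the difference from control was 1.55 (adjusted p = 0.070), and against the KO the call was lost without DKO 2 (1.38, adjusted p = 0.11), KO 1 (2.02, adjusted p = 0.13) or KO 2 (1.53, adjusted p = 0.13). With Xist as a covariate, a fit that cannot tell sex from genotype, the difference from control was 2.43 (limma, adjusted p = 0.39).

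Involucrin, the early scaffold protein of the envelope, had a higher mean in the DKO but was not called. Ivl was at 9.04 and 9.97 in control, 8.99 and 9.11 in the KO, and 9.34 and 10.81 in the DKO, so that DKO 1 lay between the control arrays. Its DKO to control difference was 0.57 (SE 0.50, limma, adjusted p = 0.73), and -0.17 to 1.31 with arrays left out in turn. Both DKO arrays lay above both KO arrays (log2 difference 1.03, SE 0.50, limma, adjusted p = 0.45). Whether Ivl differed from Lor was not tested.

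**Figure D2:**
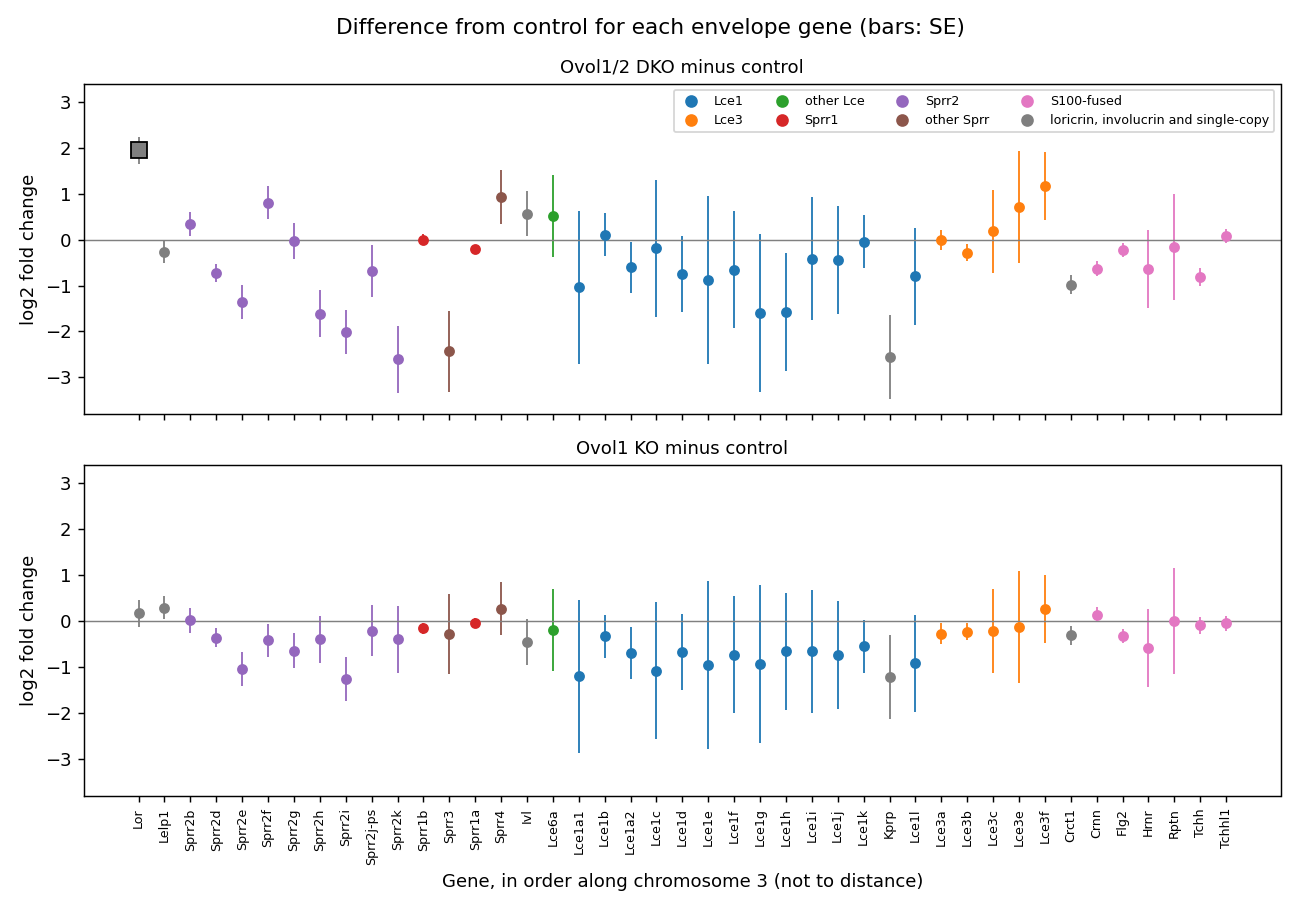
Log2 difference from control (vertical axis, points, with the limma SE as bars) for each envelope gene in its order along chromosome 3 (horizontal axis, GRCm38.p6 order, not to distance), for the DKO above and the KO below. Lor, drawn as a square, is the gene called at an adjusted p under 0.05, and the Lce1 genes carry the widest bars.

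Among the small proline-rich genes, whose products act as cross-bridges in the envelope, Sprr1a and Sprr1b were nearly level across the groups. Sprr1a was at 13.61 and 13.62 in control, 13.69 and 13.49 in the KO, and 13.35 and 13.49 in the DKO. Its DKO to control difference was -0.20 (SE 0.09, limma, adjusted p = 0.37), and that of Sprr1b was 0.00 (SE 0.12, adjusted p = 1.0). The median SD within groups was 0.13 for the Sprr1 genes beside 0.18 for all genes. These probe sets reached 13.69 where the scale ends at 14.7, and whether they still respond in proportion there was not tested.

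The 9 Sprr2 genes had a median DKO to control difference of -0.73, with a range of -2.60 to 0.81. Of the 9, 7 had lower means in the DKO, and for 5 of them both DKO arrays were below both control arrays, beside 45.7% and 21.5% of all genes. Sprr2k was at 10.25 and 10.46 in control, 9.86 and 10.05 in the KO, and 9.07 and 6.44 in the DKO. All 3 groups were separate, with the DKO arrays lowest and far apart from each other. The mean was 6.07-fold lower in the DKO than in control, but the adjusted p was 0.14 (limma, log2 difference -2.60, SE 0.73). Without DKO 1 it was called, at -3.92 (adjusted p = 0.0049), and so was the difference from the KO, at -3.51 (adjusted p = 0.0075). Without DKO 2 the differences were -1.29 (adjusted p = 0.078) and -0.89 (adjusted p = 0.23).

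Sprr2i, another member of the cluster, was at 10.82 and 11.88 in control, 10.16 and 10.03 in the KO, and 8.67 and 10.00 in the DKO. Control arrays were highest and the DKO arrays lowest, with KO 2 and DKO 2 nearly equal. The DKO mean was 4.05-fold lower than control (log2 difference -2.02, SE 0.48, limma, adjusted p = 0.092). This gene was called with arrays centred on their medians (-2.08, adjusted p = 0.026) and without control 1 (-2.55, adjusted p = 0.023), and was -1.35 without DKO 1 (adjusted p = 0.30). Sprr2f ran the other way, at 10.58 and 9.43 in control, 9.63 and 9.54 in the KO, and 10.66 and 10.96 in the DKO. Its DKO arrays were above all others, control 1 by little, and the difference from control was 0.81 (SE 0.36, limma, adjusted p = 0.37). Without control 1 it was called, at 1.38 (adjusted p = 0.033), and without control 2 it was 0.23 (adjusted p = 0.90). Against the KO the Sprr2f difference was 1.22 (adjusted p = 0.18), and it was called when only those 4 arrays were fitted (adjusted p = 0.014) or without control 1 (adjusted p = 0.016) or control 2 (adjusted p = 0.014).

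Sprr2d, Sprr2e and Sprr2h, chosen after their values were seen, had both DKO arrays below both control arrays. Sprr2d was at 13.19 and 13.21 in control, 13.16 and 12.51 in the KO, and 12.56 and 12.38 in the DKO (DKO to control -0.73, limma, adjusted p = 0.13). Sprr2e was at 11.97 and 11.69 in control, 11.38 and 10.19 in the KO, and 10.26 and 10.67 in the DKO (DKO to control -1.36, adjusted p = 0.13). In both genes the DKO arrays overlapped the KO arrays. Both were called only in fits that left out KO 1, KO 2 or both. With only the 4 control and DKO arrays fitted, the adjusted p was 0.024 for Sprr2d and 0.037 for Sprr2e (limma). Their KO replicates were 0.65 and 1.19 apart, which enters the spread of the main fit but not the DKO to control difference. Neither was called without DKO 1 (-0.82 and -1.16) or without DKO 2 (-0.64 and -1.56). Sprr2h was at 11.72 and 11.05 in control, 11.72 and 10.26 in the KO, and 10.21 and 9.35 in the DKO (DKO to control -1.61, limma, adjusted p = 0.20). Its KO arrays overlapped the controls. The remaining Sprr2 genes, Sprr2b, Sprr2g and the pseudogene Sprr2j-ps, had differences of 0.34, -0.02 and -0.68. Sprr2 genes are close copies of one another, and whether their probe sets read only their own gene was not tested.

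Sprr3, a proline-rich gene best known from internal stratified epithelia, was at 10.59 and 9.64 in control, 10.15 and 9.53 in the KO, and 9.19 and 6.18 in the DKO. The DKO arrays were the lowest of the 6, with 1 of them, DKO 2, far below the rest. The log2 difference from control was -2.43 (SE 0.88, limma, adjusted p = 0.26), and without DKO 1 it was -3.93 (adjusted p = 0.029) against control and -3.66 (adjusted p = 0.04) against the KO. Without DKO 2 these were -0.93 (adjusted p = 0.54) and -0.65 (adjusted p = 0.79). Sprr4, at 11.64 and 10.12 in control and 11.17 and 12.44 in the DKO, had overlapping groups and a difference of 0.93 (SE 0.58, adjusted p = 0.57).

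**Figure D3:**
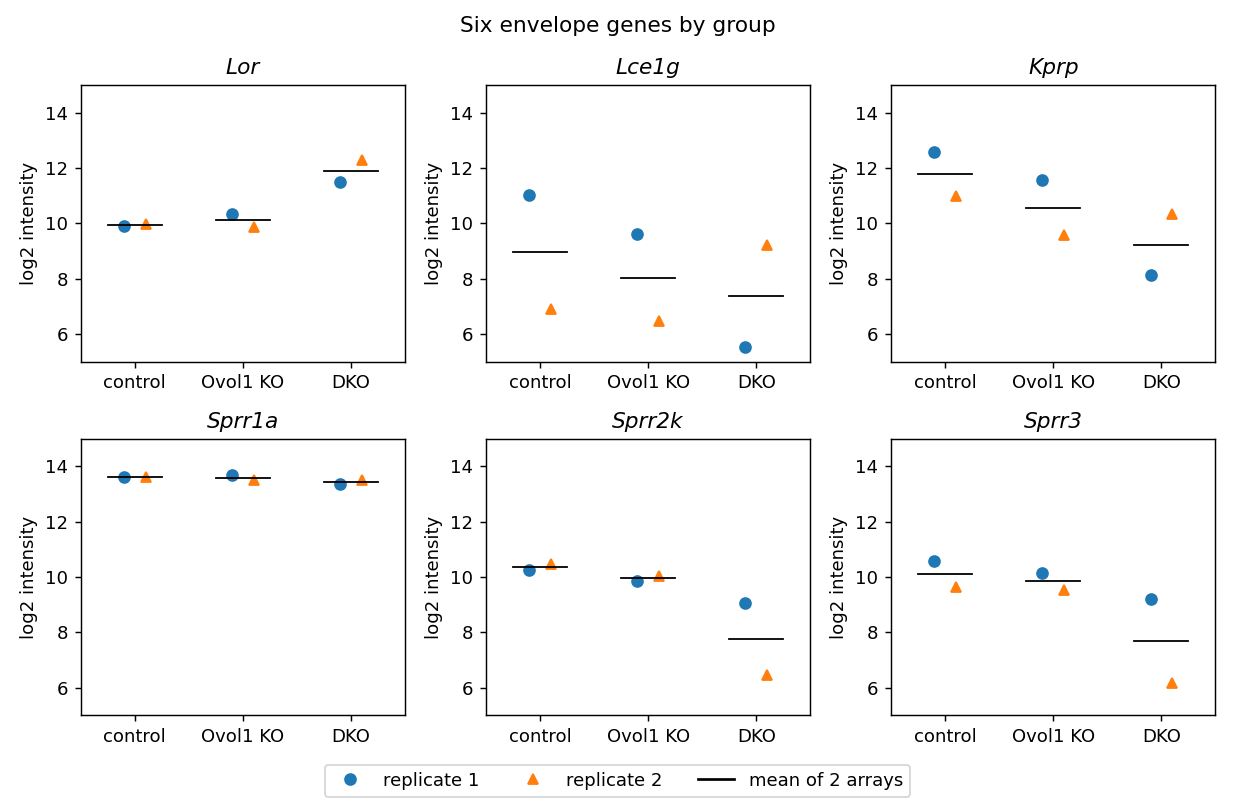
Log2 intensity (vertical axis) of Lor, Lce1g, Kprp, Sprr1a, Sprr2k and Sprr3 in the control, KO and DKO groups, with circles for replicate 1, triangles for replicate 2 and a bar for the mean of the 2 arrays. Lor is higher on both DKO arrays, Sprr1a is level, Sprr2k and Sprr3 are lowest on DKO 2, and the replicates of Lce1g and Kprp change order in the DKO.

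By median, the late cornified envelope subfamilies varied far more between arrays of a group than between groups. Lce3b did not, with SDs of 0.121 to 0.238 within groups and a DKO to control difference of -0.28. The median SD within groups was 1.92 for Lce1, 1.1 for Lce3 and 1.34 for Lce6a, beside 0.18 for all genes. Over the envelope genes together, the 2 arrays of a group were at least 2-fold apart for 21 of 43 in control, 18 in the KO and 24 in the DKO, beside 2.75%, 2.65% and 2.4% of all genes. Lce1g, which had the largest DKO to control difference of the Lce1 genes, was at 11.04 and 6.89 in control, 9.61 and 6.47 in the KO, and 5.54 and 9.20 in the DKO. Control 1 was the highest array and DKO 1 the lowest, the other DKO array lay between the controls, and the difference of -1.60 had an SE of 1.72 (limma, adjusted p = 0.80). Lce1b, at the other end, was at 8.27 and 7.25 in control and 7.31 and 8.42 in the DKO, a difference of 0.11 (SE 0.47, adjusted p = 0.96). The median Lce1 difference was -0.65, with 12 of 13 negative and 0 called. Lce1a2 alone of the Lce1 genes was called when an array was left out, at -1.52 without control 2 (adjusted p = 0.036), and it was 0.33 without control 1.

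The high arrays were control 1, KO 1 and DKO 2, on which the median Lce1 level was 10.48, 9.44 and 9.62. It was 7.98 on control 2, 7.40 on KO 2 and 7.31 on DKO 1. In control, replicate 1 exceeded replicate 2 by a median of 2.80 over the Lce1 genes (range 1.01 to 4.67), and in the KO by 2.28 (0.41 to 3.64). In the DKO the order turned, with a median of -2.68 (-4.08 to -0.64). For all genes, these medians were -0.01, -0.14 and -0.02. Lce1 genes varied closely together over the 6 arrays, with a median Pearson r of 0.94 over 78 pairs. These genes share their arrays, lie side by side and may share probe sequence, so the value is a description. Lce1 with Sprr2 genes gave 0.37 over 117 pairs and Lor with Lce1 genes gave 0.09 over 13.

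A rule written after this pattern was seen asked for replicate 1 at least 2-fold above replicate 2 in control and in the KO, and at least 2-fold below it in the DKO. It was met by 12 of the 43 envelope genes, and by 19 of the 19938 genes in all, or 0.0953%. The 12 were Lce6a, Kprp and every Lce1 gene except Lce1a2, Lce1b and Lce1k. The 7 others were Arhgap20, Ccl2, Ccn2, Cxcl1, Dio3, Gpnmb and Kctd4. With differences of any size in place of 2-fold, 24 of the 43 envelope genes met it, beside 9.0% of all genes. No test was made of this rule, since it was drawn from the values. On the values as deposited, 23 genes met it, 13 of them envelope genes, and 12 envelope genes were the same. No envelope gene was at least 2-fold higher on replicate 1 in all 3 groups, which 0.191% of all genes were. Xist divided the arrays in another way, being low on control 1, control 2 and KO 1. Of the 4 sex-linked genes measured, 1, Eif2s3y, met the rule at any size and 0 met it at 2-fold. Whether sex bears on this order was not tested.

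Markers of other cell types were set beside this order. Summed over the 10 melanocyte markers measured, log2 intensity was 12.43 and 10.60 in control, 12.85 and 10.68 in the KO, and 11.05 and 10.26 in the DKO, so that it was higher on replicate 1 in every group and did not turn in the DKO as the Lce1 genes did. The sum over the 10 fibroblast markers was 11.29 and 10.93 in control, 11.27 and 10.77 in the KO, and 11.75 and 12.13 in the DKO, and did follow the Lce1 order within each group, by less than 1 log2 unit. Of the 10, only Thy1 had that order in all 3 groups, at 9.86 and 8.12 in control, 9.36 and 7.84 in the KO, and 10.96 and 11.23 in the DKO. The collagen genes Col1a1, Col1a2 and Col3a1 were slightly lower on control 1 than on control 2, with replicate 1 minus replicate 2 at -0.12, -0.02 and -0.02. In the other groups they had the Lce1 order, at 0.17, 0.14 and 0.21 in the KO and -0.44, -0.57 and -0.55 in the DKO. Of these 10 markers, 2 were among the dimmest 30% of genes. In the DKO, 0 were called higher and 1 lower, beside 0.943% and 2.26% of all genes. The part of fibroblast RNA in the Lce1 values was not tested. The endothelial sum was 8.95 on both DKO arrays and 9.61 to 10.92 on the others. Of its markers, Kdr was furthest from level, at 10.49 and 8.51 in control, 9.95 and 8.63 in the KO, and 6.79 and 6.65 in the DKO, with Pecam1 also lower in the DKO mean (log2 difference -1.12), whereas Cdh5, Tek, Tie1 and Emcn differed from control by -0.04 to 0.28. Of the 6 endothelial markers, 5 were among the dimmest 30% of genes. Between DKO and control 0 were called, beside 3.2% of all genes in either direction. The immune sum was 9.91 and 9.61 in control, 9.64 and 9.64 in the KO, and 9.52 and 9.91 in the DKO. Of its 7 markers measured, 4 were among the dimmest 30% of genes. The turned order at any size was met by 3 of the 7, beside 9.0% of all genes. It was met by 1 of the 10 melanocyte, 1 of the 12 keratinocyte and 0 of the 6 endothelial markers. The 12 keratinocyte markers summed to 16.38 to 16.61.

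The Lce3 genes, which are induced in wounded and inflamed epidermis, had a median DKO to control difference of 0.18. Lce3f was at 6.52 and 5.65 in control, 6.46 and 6.23 in the KO, and 5.99 and 8.52 in the DKO. Only DKO 2 stood out, and the difference of 1.17 had an SE of 0.74 (limma, adjusted p = 0.57). Lce3b, the lowest of the group in the comparison, was at 7.33 and 7.15 in control and 6.80 and 7.13 in the DKO, a difference of -0.28 (adjusted p = 0.60). Lce3a, Lce3b and Lce3f were among the dimmest 30% of genes. In the DKO, replicate 1 minus replicate 2 had a median of -2.54 over the Lce3 genes. Lce6a was at 8.51 and 6.06 in control, 7.83 and 6.36 in the KO, and 6.99 and 8.60 in the DKO, with a difference of 0.51 (SE 0.89, adjusted p = 0.90).

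Matched by replicate number, the DKO to control difference of the Lce1 genes had opposite signs. In number 1 all 13 were lower in the DKO, with a median of -3.39 (range -5.50 to -0.95). In number 2 all 13 were higher, with a median of 2.09 (0.65 to 3.29). Over all genes the medians were -0.01 and 0.03, and 37.7% of genes differed in sign between the numbers, beside 24 of the 43 envelope genes. Sprr2 genes were lower in both numbers by median (-0.63 and -1.02), with 2 of 9 differing in sign. Of Lor, Ivl, Kprp, Crct1 and Lelp1, 0 of 5 differed in sign. The labels do not say that a replicate number marks a shared litter, day or batch, so these are differences between single arrays and carry no test.

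**Figure D4:**
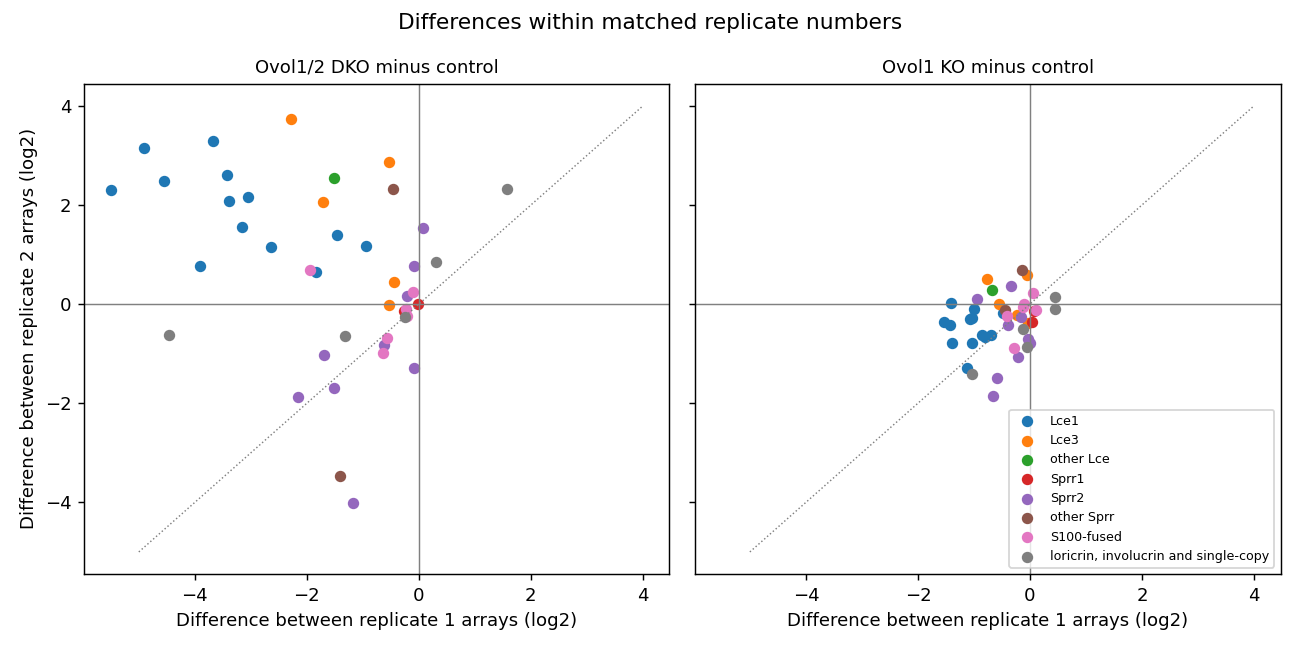
Log2 difference from control of each envelope gene between the replicate 1 arrays (horizontal axis) and between the replicate 2 arrays (vertical axis), for the DKO on the left and the KO on the right, with a dotted line of equality. In the DKO the 13 Lce1 genes lie in the upper left corner, lower in number 1 and higher in number 2, while in the KO most genes lie below both zero lines.

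The S100-fused genes, whose products bind calcium and associate with keratin filaments, had a median DKO to control difference of -0.43, and none was called. Tchh, trichohyalin of the hair follicle's inner root sheath, was at 8.87 and 8.90 in control, 8.75 and 8.84 in the KO, and 8.23 and 7.91 in the DKO. Both DKO arrays were below the 4 others (log2 difference -0.81, SE 0.19, limma, adjusted p = 0.085). Crnn, cornulin, was at 6.86 and 6.97 in control, 6.92 and 7.20 in the KO, and 6.29 and 6.28 in the DKO, again lowest in the DKO though dim throughout (-0.63, SE 0.16, adjusted p = 0.11). Hrnr, hornerin, a relative of filaggrin, was at 10.41 and 10.86 in control, 10.12 and 9.98 in the KO, and 8.47 and 11.54 in the DKO. The DKO arrays were the lowest and the highest of the 6, with a mean difference of -0.63 (SE 0.85, adjusted p = 0.86), and it was called at -2.17 without DKO 2 (adjusted p = 0.031) but was 0.90 without DKO 1 (adjusted p = 0.24). Rptn, repetin, had another order, at 6.64, 6.75 and 6.42 on the replicate 1 arrays and 9.12, 9.01 and 9.03 on the replicate 2 arrays of control, KO and DKO, with a DKO to control difference of -0.16 (adjusted p = 0.98). Flg2, at 5.48 to 6.01, and Tchhl1, at 6.89 to 7.15, were among the dimmest 30% of genes and differed from control by -0.22 and 0.08 in the DKO.

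Kprp, a keratinocyte proline-rich protein gene that lies between Lce1k and Lce1l, took part in the array order of its neighbours. It was at 12.58 and 10.98 in control, 11.56 and 9.57 in the KO, and 8.12 and 10.35 in the DKO. Unlike the Lce1 genes, both DKO arrays were below both control arrays (log2 difference -2.55, SE 0.92, limma, adjusted p = 0.26). Crct1, a small cysteine-rich protein gene beyond the Lce3 genes, was at 13.71 and 13.62 in control, 13.59 and 13.12 in the KO, and 12.40 and 12.97 in the DKO. Its DKO arrays were the lowest of the 6, at -0.98 (SE 0.21, adjusted p = 0.062), and it was called with median-centred arrays (-0.93, adjusted p = 0.015) and without control 2 (-1.02, adjusted p = 0.048), while without DKO 1 it was -0.70 (adjusted p = 0.23). Lelp1, at 6.74 to 7.76, had a difference of -0.26 (adjusted p = 0.78).

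Loss of Ovol1 alone gave no call. Between the KO and control, 0 of the 43 envelope genes and 0 of all genes passed (limma, Benjamini-Hochberg), with 2 of the 43, Sprr2e and Sprr2i, or 4.65%, at an unadjusted p under 0.05 beside 0.813% of all genes. The KO mean was below control for 37 of the 43 (86.0%), beside 65.7% of all genes, and above it for 6, beside 34.3%, with a median of -0.36 beside -0.06. The median was -0.72 to 0.15 when arrays were left out in turn. Both KO arrays lay below both controls for 9 of the 43, or 20.9%, beside 18.3% of all genes, and 4 of the 9 were Sprr2 genes. For 0 of the 43 were both KO arrays above both controls, beside 5.8% of all genes. The largest Sprr2 difference was that of Sprr2i at -1.26 (unadjusted p = 0.036, limma), and Sprr2e was at -1.04 (unadjusted p = 0.026). All 13 Lce1 means were lower, from -1.20 for Lce1a1 to -0.33 for Lce1b. Lce1a1 was at 12.36 and 8.88 in control and 11.24 and 7.60 in the KO, so the groups overlapped. Within matched numbers, the Lce1 median was -1.04 in number 1 and -0.42 in number 2, with 13 and 12 of 13 lower.

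Between the DKO and the KO, Lor was again the only envelope gene called, higher in the DKO, beside 0.657% of all genes called higher and 1.49% called lower. Called in either direction were 2.15% of all genes. The DKO and KO arrays did not overlap for 13 of the 43 envelope genes, beside 42.2% of all genes. DKO means were above KO for 24 of the 43, beside 64.4% of all genes, and below for 19, beside 35.6%. At an unadjusted p under 0.05 there were 7, beside 13.3%. The median of the envelope genes was 0.09, the same as that of all genes. The DKO to control and DKO to KO comparisons share the DKO arrays, and the first shares the control arrays with the KO to control comparison. Xist was low on KO 1, as on the controls, and high on KO 2, as on the DKO arrays. Genotype and sex are thus partly mixed in the DKO to KO and KO to control comparisons.

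Genes that act with the envelope proteins were taken from lists of related function. Of the 10 cross-linking and scaffold genes, 1 was higher in the DKO than in control and 0 were lower, beside 0.943% and 2.26% of all genes, with a median of -0.05. It was Tgm3, a transglutaminase that cross-links envelope proteins, at 7.71 and 7.58 in control and 11.21 and 9.45 in the DKO (log2 difference 2.68, limma, adjusted p = 0.042). The call was lost without KO 1 or KO 2, with adjusted p up to 0.087. Of the 12 filaggrin processing genes, 0 were higher and 3 lower, beside the same shares of all genes, 0.943% and 2.26%, with a median of -0.15. They were the membrane serine proteases Prss8 (-2.27, adjusted p = 0.0039) and St14 (-1.81, adjusted p = 0.0062), which act in a common cascade, and Padi3 (-1.13, adjusted p = 0.020), which converts arginine to citrulline in trichohyalin and filaggrin. The Prss8 and St14 calls held without any 1 array, with adjusted p up to 0.033 and 0.046, whereas Padi3 was lost without either control or either DKO array (up to 0.11).

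Of 13 suprabasal companion genes measured, 3 were higher and 0 lower, beside 0.943% and 2.26% of all genes, with a median of 1.63. Krt10, a keratin of the spinous layers, rose by 4.14 (limma, adjusted p = 0.0035) and kept its call without any 1 array (up to 0.022). Its partner Krt1 rose by 4.15 (adjusted p = 0.022) and was lost without KO 1 or KO 2 (up to 0.054). Skint3, an immunoglobulin-family gene of skin, rose by 3.74 (adjusted p = 0.0070) and was lost without DKO 1 (0.055). Of 35 known regulators of envelope genes, 5 were higher and 2 lower, beside 0.943% and 2.26% of all genes. Pou2f3, a POU factor of suprabasal cells, rose by 4.72 (adjusted p = 0.00068), and Elf3, an epithelial ETS factor, fell by 1.67 (adjusted p = 0.0060). Both calls held without any 1 array, with adjusted p up to 0.0044 and 0.035. Maf, which activates differentiation genes, rose by 2.32 (adjusted p = 0.011), and Prdm1, a repressor expressed in the granular layer, fell by 2.30 (adjusted p = 0.022). Both were lost without DKO 1 (0.066 and 0.093). With Xist as a covariate, Skint3 alone of the genes named in these lists was called (adjusted p = 0.046). In the KO, 0 genes of these 4 lists were called. None met the 2-fold rule for the turned replicate order, while at any size 0 of the 10 cross-linking, 4 of the 12 filaggrin processing, 2 of the 13 suprabasal and 7 of the 35 regulator genes turned, beside 9.0% of all genes.

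Other genes of the same stretch of chromosome 3, between S100a1 and S100a11 in GRCm38.p6, were measured for comparison. Of 18, 0 were higher and 1 lower in the DKO, beside 0.943% and 2.26% of all genes. Their median was -0.61 beside 0.02 for all genes. The 2-fold rule for the turned order was met by 0 of them, beside 0.0953% of all genes. The 1 called was S100a14, an S100 protein gene, at -3.09 (limma, adjusted p = 0.0049), which kept its call without any 1 array. With Xist as a covariate S100a14 was not called (limma, adjusted p = 0.41). In the KO the median of the 18 genes was -0.03, beside -0.06 for all genes, and 0 were called.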

How the data were processed

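Probe set intensities were deposited by the authors on a linear scale. Affymetrix Expression Console 1.1.1 and PLIER 2.0 are named, with no role, per the submitters' processing notes, and no source used here gives their background correction or normalization between arrays. The number of arrays limits the precision.

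The table held 35556 probe sets, of which 21789 had 1 gene symbol in the platform annotation, 1621 several and 12146 none here. The 4 probe sets that name an envelope gene among several were left out. Intensities plus 16 were log2-transformed and quantile-normalized over all probe sets, since array quartiles differed by up to 0.218. The brightest probe set stood for each of 19938 genes. One mean per group was fitted with limma 3.58.1 (R 4.3.3; lmFit, then eBayes with a trend) on all 6 arrays with 3 residual and 3.894 prior degrees of freedom. P-values were Benjamini-Hochberg adjusted over all genes, and called means an adjusted p under 0.05. The fit was tested on simulated data. Other offsets, normalizations, filters, priors, covariates and array sets were tried.

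Named were the targeted genes, every called member, each subfamily's largest rise and fall in DKO and KO against control, every S100-fused and single-copy member, and up to 4 called genes per related list by smallest p. The members and lists were chosen with earlier results of these data known.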

Additional observations from a re-analysis of the deposited data

How the results depend on the processing

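With 2 arrays per group, the limits are few arrays, unknown days in culture and a sex-linked split that largely follows genotype. Offsets of 1 and 64, values as deposited, no trend, robust eBayes, the mean over probe sets and leaving out the dimmest 30% of genes gave the same envelope gene call, Lor, between DKO and control. Median-centred arrays gave 2 lower envelope genes. Fitting only the 4 arrays gave 2 lower between DKO and control, and between DKO and KO 2 higher, with 738 genes in all. With Xist as a covariate, 0 envelope genes were higher in either comparison, with 8 and 73 genes in all. Leaving out 1 array gave, between DKO and control, 0 to 2 higher and 1 to 2 lower envelope genes, 258 to 735 genes in all and a median of -0.92 to 0.21. Between KO and control it gave 0 to 4 genes in all and a median of -0.72 to 0.15. Between DKO and KO it gave 0 to 2 higher and 0 to 2 lower, 88 to 738 in all and a median of -0.62 to 0.58. Deviations of same-numbered arrays correlated over genes at 0.687 for control and KO, 0.151 for control and DKO and 0.087 for KO and DKO, which with only 2 numbers does not establish pairs. The replicate block gave 2 lower envelope genes between DKO and control (Sprr2h and Sprr2i, 1069 genes in all) and 2 between DKO and KO (Crnn and Sprr2h, 805 in all). The cause of these shifts was not tested. Of 1308 single-gene values under alternatives, none called changed sign and 69 that were called in neither fit did.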
